A study of Mus musculus with 13 samples.

Results

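Pax7, Lbx1, Met, Myf5, Myf6, Myod1, Myog and Mef2c are 8 genes of the muscle precursors that populate the limb. CTCF and cohesin sites were described around each of them in mouse limb tissue of embryonic stage E12.5. A site belonged to a gene if the summit of its peak lay in the gene body or within 50 kb of either end, with gene bounds from the GENCODE M21 annotation on mm10. The windows of Myf5 and Myf6 overlapped, so the 8 genes, of 21938 protein-coding genes in all, gave 7 loci. These loci held 58 CTCF sites and 23 cohesin sites, counting every list.

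Muscle of the limb comes from cells that leave the somites and migrate into the limb bud. Pax7, a paired-box transcription factor, marks muscle progenitors and later satellite cells, while Lbx1, a homeobox factor, and Met, the receptor of hepatocyte growth factor, are needed for the migration. Myf5, Myf6 (also called Mrf4), Myod1 and Myog are the myogenic regulatory factors, basic helix-loop-helix proteins that set muscle fate and drive differentiation, and Mef2c is a MADS-box factor that works with them. Cohesin, a ring complex with the subunits RAD21 and SMC1, extrudes chromatin loops, and it can be halted by CTCF, a DNA-binding protein with zinc fingers whose motif has a direction. Myf5 and Myf6 lie next to each other and share a long stretch of enhancers.

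Peak lists were available for 11 of the 13 samples of the series, and the 2 H3K27ac samples are not analysed here. The mutant samples came from B6CBAF1 embryos homozygous for a deletion at the HoxD gene cluster, obtained by crossing heterozygotes. CTCF was profiled in delHoxd(8-13)d11lac limbs, delHoxd(8-13)rXII forelimbs, delHoxd(1-13)d9lac limbs and delHoxd(attP-rel5)d9lac limbs, and RAD21 in delHoxd(8-13)rXII limbs. The alleles are written below with del in place of delHoxd. Wild-type distal forelimb of CD1 embryos gave lists of CTCF, RAD21 and SMC1, and wild-type proximal forelimb of CD1 embryos gave a list of CTCF. Wild-type B6CBAF1 whole forelimbs and hindlimbs, pooled, gave lists of CTCF and RAD21. The CTCF sample of del(8-13)rXII stood apart in method, since it came from the forelimbs of 4 embryos alone and was made by ChIPmentation, in which the transposase Tn5 adds the sequencing adapters. Tissue was fixed for 10 minutes for CTCF, 25 minutes for SMC1 and 10 or 25 minutes for RAD21, and which RAD21 library had which time is not given in the sources used here.

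Each condition had 1 library, so no difference has a replicate check and no test between conditions was possible. The main shares are given with a Wilson 95% interval, which covers counting error only, beside the same share over all peaks of the genome. Lists held between 15927 peaks, for RAD21 in del(8-13)rXII, and 73682 peaks, for CTCF in proximal forelimb, and the depth of sequencing is unknown. A site without a peak is a site where none was called. Strengths are the authors' −log10 q values per peak, a measure of confidence over background that grows with depth, so they rank peaks within a list. The lists hold no measure of cell type. The proximal forelimb is the part in which muscle cells are more common, and that could not be checked here. No member lies on chromosome 2, which carries the deleted HoxD interval.

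Below, a consensus CTCF site is a peak of the wild-type whole-limb list that overlaps a peak of the distal and a peak of the proximal list by at least 1 base. The member windows held 30 such sites, of 39477 in the genome. The other 28 CTCF sites comprised 14 in both forelimb lists without a qualifying whole-limb peak, 2 in distal but not proximal forelimb, 7 in proximal but not distal forelimb and 5 in neither. Sites are numbered along the chromosome within each locus.

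A 19-base CTCF motif was built from the 2000 strongest whole-limb peaks. A match lay near the summit at 29 of the 30 consensus sites of the members (96.7%), against 83.4% of all consensus sites. This share has no interval, so no excess over the genome is read from it. The matches are shown for the strongest consensus site of each locus and for the consensus sites that flank each transcription start, because these are the sites that the account below turns on. They were read from the RefSeq assembly GRCm38.p6, the build that mm10 stands for, on the strand that holds the motif. Capitals mark the core, bases 5 to 16 of the motif.
Pax7 site 9, flanking downstream (chr4:139789966-139789984, plus strand): taggCACTAGAGGGCGctg
Pax7 site 11, flanking upstream (chr4:139840642-139840660, minus strand): aagcCAGAAGAGGGCGtca
Pax7 site 15, strongest (chr4:139872776-139872794, plus strand): cagcCACCAGAGGGCAgca
Lbx1 site 5, flanking downstream (chr19:45221307-45221325, plus strand): gtgcCGCTAGGTGGCActc
Lbx1 site 6, strongest and flanking upstream (chr19:45244493-45244511, minus strand): ccgcCAGCAGCAGGCGctg
Met site 4, strongest and flanking downstream (chr6:17589848-17589866, minus strand): tgaaCACTAGGTGGCActc
Myf5-Myf6 site 1, strongest (chr10:107442978-107442996, plus strand): taacCACCAGGGAGCAgac
Myf5-Myf6 site 3, flanking Myf5 downstream (chr10:107473727-107473745, minus strand): cagcCAGTGGAGGGCAtct
Myf5-Myf6 site 4, inside Myf6 and upstream of Myf5 (chr10:107493857-107493875, plus strand): tggcCACTGGGGGCTGcag
Upstream of Myf6, outside the window (chr10:107704634-107704652, minus strand): agacCATTAGAGGGCAgca
Myod1 site 1, inside Myod1 (chr7:46377178-46377196, minus strand): gcggCGCCAGGGGGCGcgg
Myod1 site 4, strongest (chr7:46393321-46393339, plus strand): ccgcCACAAGATGGCAgtc
Myog site 1, strongest (chr1:134244374-134244392, minus strand): gcgcCAGCAGGGGGACccc
Myog site 3, flanking upstream (chr1:134281751-134281769, plus strand): agacCAGAAGAGGGCGttg
Myog site 4, inside Myog (chr1:134291116-134291134, minus strand): cggaCTGCAGGAGGCGctg
Upstream of Mef2c, outside the window (chr13:82092354-82092372, minus strand): gagcCACTAGAGGGCGcag
Mef2c site 3, flanking downstream (chr13:83655068-83655086, minus strand): tggcCAGCAGGTGGCGcta
Mef2c site 8, strongest (chr13:83715167-83715185, plus strand): tgtcCACTAGAGGTCActg
The match scores of these sites ranged widely: the Mef2c site 3 motif scored 23.3 bits and the Myf6 exon motif 6.69 bits, over a threshold of 4.48 bits that 5% of 10755 control windows reached. Of the consensus motifs, 15 lay on the plus strand and 14 on the minus strand of the genome.

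Each of the 7 loci held at least 1 site bound by CTCF and cohesin in every list. A peak in all 11 lists was present at 12 of the 30 consensus sites (40.0%, 95% interval 24.6 to 57.7), against 30.0% of all consensus sites. They were 3 sites of Pax7, 2 of Lbx1, 2 of Myog, 2 of Mef2c and 1 each of Met, Myod1 and the pair of Myf5 and Myf6. As many, 12 of 30 (40.0%, 24.6 to 57.7), had no cohesin peak in any list, against 36.7% of all consensus sites, and these lay at Pax7, Myf5 and Myf6, Myod1 and Myog. The genome-wide shares lie within both intervals.

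**Figure D1:**
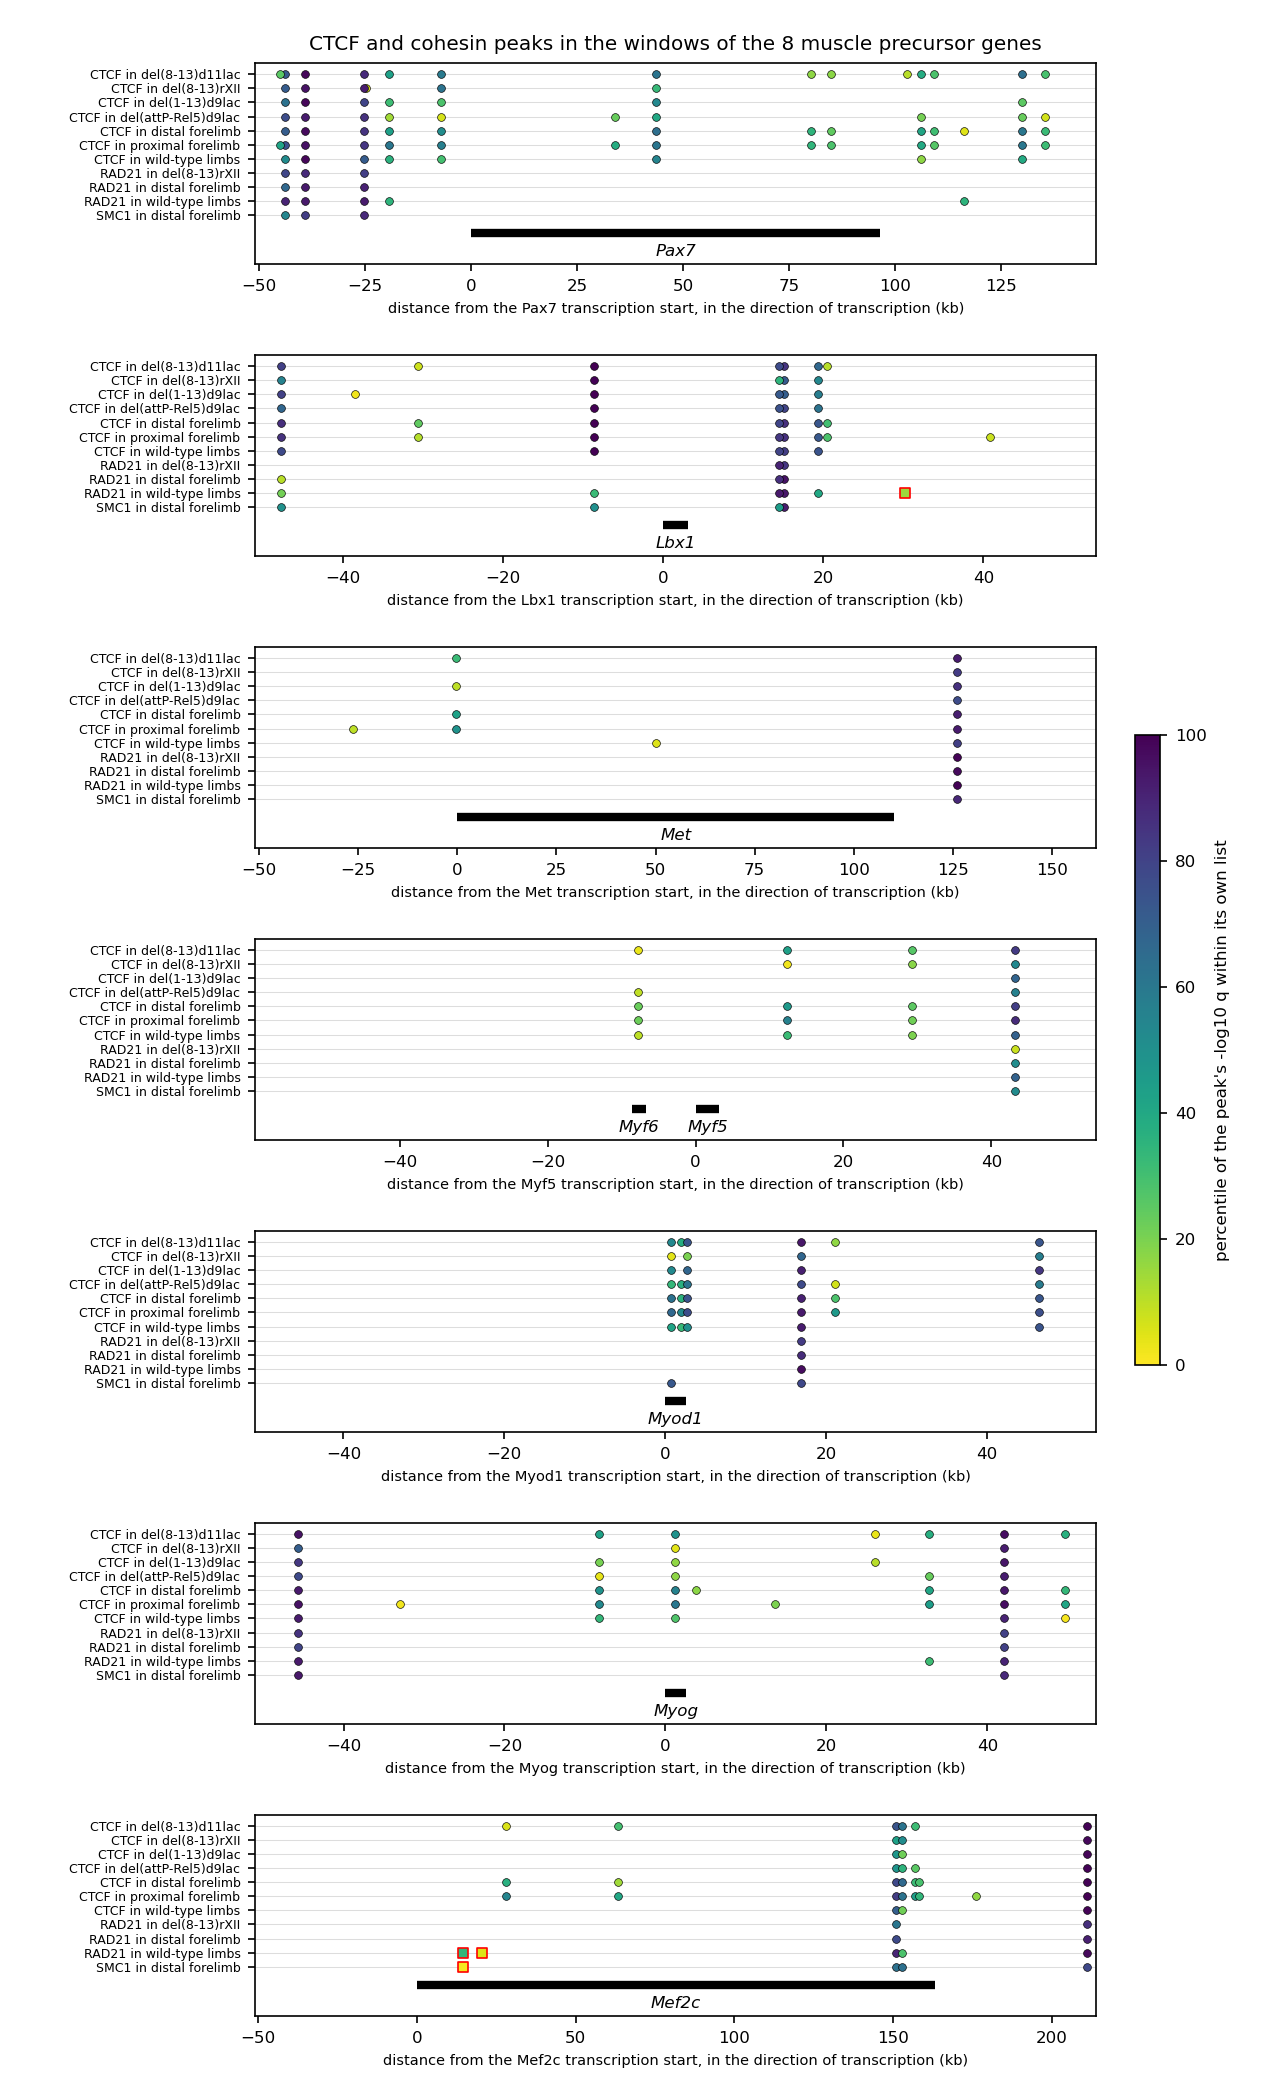
Peaks in the 7 loci, plotted by distance from the transcription start (kb, in the direction of transcription), with 1 row per list and the gene body as a black bar. Colour gives the percentile of the peak within its own list; cohesin peaks near CTCF are drawn at the CTCF site, and red squares mark the 3 cohesin sites without CTCF within 1 kb. Each locus has at least 1 column of points that runs through all 11 rows.

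The Pax7 gene lies on the minus strand of chromosome 4 (chr4:139737062-139833528), and its window held 17 CTCF sites, 8 of them consensus. Cohesin sat upstream of the gene, apart from a RAD21 peak in wild-type limbs at site 3, beyond the far end. The 3 consensus sites with a peak in all lists, sites 14, 15 and 16, were 25.3, 39.3 and 44.0 kb upstream of the start. Site 15 was the strongest of the locus, with a CTCF −log10 q of 224 in distal and 202 in proximal forelimb. In the deletion alleles its value was 233 in del(8-13)d11lac limbs and 22.2 in del(8-13)rXII forelimbs, and 95.1 in del(attP-rel5)d9lac and 104 in del(1-13)d9lac limbs, against 111 in wild-type limbs. RAD21 reached 40.5 there in del(8-13)rXII limbs, 52.9 in distal forelimb and 102 in wild-type limbs, and SMC1 reached 25.8 in distal forelimb. No list lacked this site, and the low value in del(8-13)rXII is that of a list whose median was 7.07.

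Site 14 of Pax7 had CTCF at 134 in distal and 125 in proximal forelimb, with RAD21 at 46.9 in distal forelimb and 99.6 in wild-type limbs. Site 16 had CTCF at 70.7 in distal and 78.8 in proximal forelimb, with RAD21 at 21.9 in distal forelimb and 87.5 in wild-type limbs. Both were thus close in the 2 forelimb parts. The other consensus sites of the window were weaker and nearly free of cohesin. Site 9, in an intron 43.6 kb past the start, had CTCF at 48.6 in distal and 35.6 in proximal forelimb, and site 2, beyond the far end of the gene, had 40.5 in distal and 34.0 in proximal forelimb. Site 11, 7.11 kb upstream, had 25.5 in distal and 28.7 in proximal forelimb. Site 12, 19.3 kb upstream, had 17.3 in distal and 34.8 in proximal forelimb and a RAD21 peak of 7.11 in wild-type limbs alone. No list had a CTCF or cohesin peak within 1 kb of the Pax7 start.

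A string taken from the Pax7 motifs was then counted. The string CAGAAGNGGGC, in which N stands for any base, was searched within the motif matches on the strand of the motif. It was held by 7 of the 12 Pax7 motifs, by 2 of 8 at Lbx1, by 1 of 6 at Myog and by none at the other loci. It was picked from the Pax7 motifs after they had been seen, so the count there is a description and does not set Pax7 apart. The consensus motif of Pax7 site 11 above carries it, and 3 further Pax7 sites are shown as examples, whose bases outside the string differ.
Pax7 site 2 (chr4:139703644-139703662, plus strand): aggcCAGAAGGGGGCAtca
Pax7 site 5 (chr4:139727326-139727344, minus strand): aggcCAGAAGAGGGCGctg
Pax7 site 8 (chr4:139753349-139753367, minus strand): agacCAGAAGAGGGCActg
All 10 member motifs with the string lay in sequence that the assembly marks as repeats, as did 13 of the 45 member motifs in all. No cohesin list had a peak at any of the 10. Only 4 of them were consensus sites, and Pax7 site 2 had the highest distal CTCF value of the 10. Of the 4705 distal CTCF peaks within 1.2 times the strength of that site, 86.7% also lacked distal RAD21. Among consensus sites, 4 of 29 member motifs held the string (13.8%, 5.50 to 30.6), against 12.0% genome-wide, and 6 of 29 lay in masked repeats (20.7%, 9.85 to 38.4), against 21.3%. Over the whole genome, whole-limb RAD21 was called at 20.8% of the 3954 consensus sites with the string and at 65.1% of the 28955 without it. Their CTCF peaks were also weaker, with a median whole-limb −log10 q of 11.1 with the string and 27.1 without it, and the part that strength plays was not tested. The kind of repeat was not analysed here.

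The Lbx1 gene (chr19:45232684-45235812, minus strand) lay between CTCF sites that differed widely in RAD21. Site 6, 8.68 kb upstream of the start, was the strongest CTCF site of all the member windows. Its −log10 q was 327 in distal and 337 in proximal forelimb. It was 327 in del(8-13)d11lac limbs and 35.4 in del(8-13)rXII forelimbs, and 194 in del(attP-rel5)d9lac and 172 in del(1-13)d9lac limbs, against 172 in wild-type limbs. This placed the site at percentile 99.9 of the whole-limb list. RAD21 was sparse there. It was called in wild-type limbs at 6.42, percentile 32.3 of that list, and not in distal forelimb or in del(8-13)rXII limbs. SMC1 was called in distal forelimb at 11.3, percentile 50.2 of its list. Distal RAD21 was missing at 13.1% of the 350 distal CTCF peaks within 1.2 times the strength of site 6. The motif of this site, shown above, was also one of the lower-scoring ones, at 7.58 bits.

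Downstream of Lbx1, sites 4 and 5 stood 15.1 and 14.5 kb past the start, with their summits under 1 kb apart and both motifs on the plus strand. Their CTCF values were 141 and 107 in distal forelimb and 132 and 119 in proximal forelimb. Both had a cohesin peak in all 4 lists, with RAD21 at 59.8 and 39.9 in distal forelimb and 107 and 101 in wild-type limbs. SMC1 in distal forelimb was 37.6 at site 4 and 9.93 at site 5, the latter below the 11.3 of site 6. Site 9, 47.7 kb upstream, matched site 4 in CTCF, with 142 in distal and 131 in proximal forelimb, but its RAD21 was 4.72 in distal forelimb and 4.15 in wild-type limbs. SMC1 at site 9 was 11.2 in distal forelimb. Site 3 had CTCF at 79.6 in distal and 68.6 in proximal forelimb and RAD21 at 8.76 in wild-type limbs alone. A RAD21 peak without CTCF within 1 kb lay 30.2 kb past the start (chr19:45205435-45205766), at 3.27 in wild-type limbs.

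Met (chr6:17463800-17573980, plus strand) had the barest window, with 1 consensus CTCF site in 210 kb. Only 12.7% of coding genes had fewer consensus sites in their windows. That site, 126 kb past the start and beyond the end of the gene, had CTCF at 174 in distal and 176 in proximal forelimb. It was 178 in del(8-13)d11lac limbs and 15.0 in del(8-13)rXII forelimbs, and 56.7 in del(attP-rel5)d9lac and 54.4 in del(1-13)d9lac limbs, against 51.2 in wild-type limbs. Its RAD21 peaks were the strongest of all the member windows, at 86.3 in del(8-13)rXII limbs, 70.9 in distal forelimb and 175 in wild-type limbs, percentile 99.5 of the last list. SMC1 reached 32.0 in distal forelimb.

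The Met start itself had a CTCF site 283 bp upstream. It was called at 16.3 in distal and 18.7 in proximal forelimb, at 13.8 in del(8-13)d11lac and at 3.92 in del(1-13)d9lac. It was not called in del(8-13)rXII, del(attP-rel5)d9lac or wild-type limbs, and no cohesin list had it. The missing call in wild-type limbs keeps it out of the consensus sites, and the nearest consensus site upstream of Met was 101 kb away. One weak peak was present in proximal forelimb but not distal forelimb, at 3.30, and another in wild-type limbs alone, at 2.88 in an intron.

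Myf6 and Myf5 lie in tandem on the minus strand of chromosome 10, with Myf6 (chr10:107492853-107494737) upstream of Myf5 (chr10:107482908-107486134). Their shared window held 4 CTCF sites, all consensus. Site 1, 43.1 kb past the Myf5 start, was the strongest, with CTCF at 118 in distal and 141 in proximal forelimb. It was the 1 site of the pair with cohesin: RAD21 was 4.25 in del(8-13)rXII limbs, 14.8 in distal forelimb and 33.2 in wild-type limbs, and SMC1 was 11.9 in distal forelimb. The RAD21 value in del(8-13)rXII, at percentile 7.86 of its list, ranked lower than the wild-type whole-limb value, at percentile 68.9, although single libraries do not show whether this exceeds library differences.

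The other 3 sites of Myf5 and Myf6 were weak. Site 2 had 7.54 in distal and 5.45 in proximal forelimb, and site 3 had 19.7 in distal and 27.4 in proximal forelimb. Site 4 lay in coding sequence of Myf6, 853 bp past its start, with 6.89 in distal and 5.81 in proximal forelimb. It was called at 3.73 in del(8-13)d11lac and 4.90 in del(attP-rel5)d9lac, against 3.75 in wild-type limbs, and not in the other alleles. Upstream of Myf6 the next consensus site was 210 kb away, inside Ptprq.

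Myod1 (chr7:46376474-46379099, plus strand) carried CTCF over its own body. Site 1 lay in coding sequence 718 bp past the start, site 2 in the 3′ UTR and site 3 just past the end of the gene. Site 1 had CTCF at 45.4 in distal and 48.5 in proximal forelimb. It was 36.6 in del(8-13)d11lac limbs and 1.95 in del(8-13)rXII forelimbs, and 12.1 in del(attP-rel5)d9lac and 17.7 in del(1-13)d9lac limbs, against 12.4 in wild-type limbs. SMC1 was called at site 1 at 20.1 in distal forelimb, while no RAD21 list had a peak. It was the 1 member start with a cohesin peak within 1 kb. Site 2 had 11.9 in distal and 22.3 in proximal forelimb, and site 3 had 83.2 in distal and 83.8 in proximal forelimb, both without cohesin.

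Cohesin at Myod1 was otherwise found at site 4 alone, 16.9 kb past the start and before the neighbouring gene Kcnc1. Its CTCF value was 167 in distal and 178 in proximal forelimb, and its RAD21 was 33.8 in del(8-13)rXII limbs, 41.5 in distal forelimb and 127 in wild-type limbs. Site 6, in an intron of Kcnc1, had CTCF at 78.8 in distal and 82.4 in proximal forelimb and 40.3 in wild-type limbs, with no cohesin peak. Of the 4769 whole-limb CTCF peaks of like strength, 18.9% lacked RAD21 in wild-type limbs. Of the 5162 distal CTCF peaks of like strength, 61.7% lacked RAD21 and 41.0% lacked SMC1 in distal forelimb. Upstream of Myod1 no consensus site was found for 90.8 kb, and no list had any peak in the 91.5 kb between that site, inside Otog, and site 1.

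Myog (chr1:134289989-134292548, plus strand) lay between 2 strong sites, each with cohesin in all 4 lists. Site 1, 45.6 kb upstream, had CTCF at 186 in distal and 200 in proximal forelimb, with RAD21 at 36.8 in del(8-13)rXII limbs, 31.8 in distal forelimb and 102 in wild-type limbs. Site 9, 42.1 kb past the start in an intron of Ppfia4, had CTCF at 187 in distal and 211 in proximal forelimb, with RAD21 at 31.7 in del(8-13)rXII limbs, 32.7 in distal forelimb and 88.1 in wild-type limbs. Both motifs were on the minus strand. Nearer the gene, site 3, 8.22 kb upstream, had 23.0 in distal and 22.9 in proximal forelimb. Site 4, in coding sequence 1.13 kb past the start, had 31.7 in distal and 34.1 in proximal forelimb, and neither had cohesin. Site 8, which was in both forelimb lists, had RAD21 at 6.25 in wild-type limbs alone.

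Mef2c (chr13:83504034-83667080, plus strand) had its strongest cohesin sites in the later part of the gene and beyond its end. Site 8, 211 kb past the start, had CTCF at 267 in distal and 282 in proximal forelimb, and RAD21 at 38.6 in del(8-13)rXII limbs, 47.9 in distal forelimb and 138 in wild-type limbs. Site 3, in an intron 151 kb past the start, had CTCF at 102 in distal and 112 in proximal forelimb, and RAD21 at 18.4 in del(8-13)rXII limbs, 29.9 in distal forelimb and 87.3 in wild-type limbs. The 2 motifs pointed in different directions, site 3 being on the minus strand and site 8 on the plus strand. Site 4, next to site 3, had CTCF at 55.2 in distal and 37.5 in proximal forelimb, RAD21 at 5.51 in wild-type limbs and SMC1 at 15.8 in distal forelimb.

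Near the starts of Mef2c there was RAD21 without CTCF. A peak in an intron 14.4 kb past the annotated gene start (chr13:83518176-83518569) had RAD21 at 6.89 in wild-type limbs and SMC1 at 1.81 in distal forelimb. Another in a 5′ UTR (chr13:83524471-83524896) had RAD21 at 2.20 in wild-type limbs, and the second of the 3 Mef2c promoters that RefSeq lists ends upstream of it (chr13:83523406-83523705). Both were called in few lists and at low strength. With the Lbx1 peak, these were the 3 of 22 whole-limb RAD21 peaks in the member windows without CTCF within 1 kb (13.6%, 4.75 to 33.3), against 19.6% of all whole-limb RAD21 peaks. None of the 3 was called in distal forelimb RAD21 or in del(8-13)rXII limbs, and each lay within the windows of Lbx1 or Mef2c.

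The 8 genes differed widely in how far they lay from CTCF. The member windows held a median of 4 consensus sites, as did those of all coding genes, between 1 at Met and 8 at Pax7. The nearest consensus site upstream was 7.11 kb from Pax7, 7.75 kb from Myf5, 8.22 kb from Myog, 8.68 kb from Lbx1, 90.8 kb from Myod1, 101 kb from Met, 210 kb from Myf6 and 1410 kb from Mef2c. For all coding genes the median was 23.8 kb and the 90th percentile 195 kb. Mef2c stood at the far end, since 98.6% of coding genes had a nearer site upstream.

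The stretch between that upstream site and Mef2c site 3 was 1560 kb long, longer than 99.8% of the 39456 gaps between neighbouring consensus sites, whose median was 26.4 kb. It was not free of CTCF. Distal forelimb had 6 peaks in it, proximal forelimb 9 and wild-type limbs 3, and 3 of the distal peaks overlapped proximal ones. Mef2c site 1 held the strongest of the distal peaks, and 5 whole-limb RAD21 peaks and 2 SMC1 peaks also lay in the stretch. Counting sites of both forelimb lists whatever the whole-limb list held, a definition added after these values were seen, the nearest upstream site was 948 kb from Mef2c and 0.283 kb from Met.

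**Figure D2:**
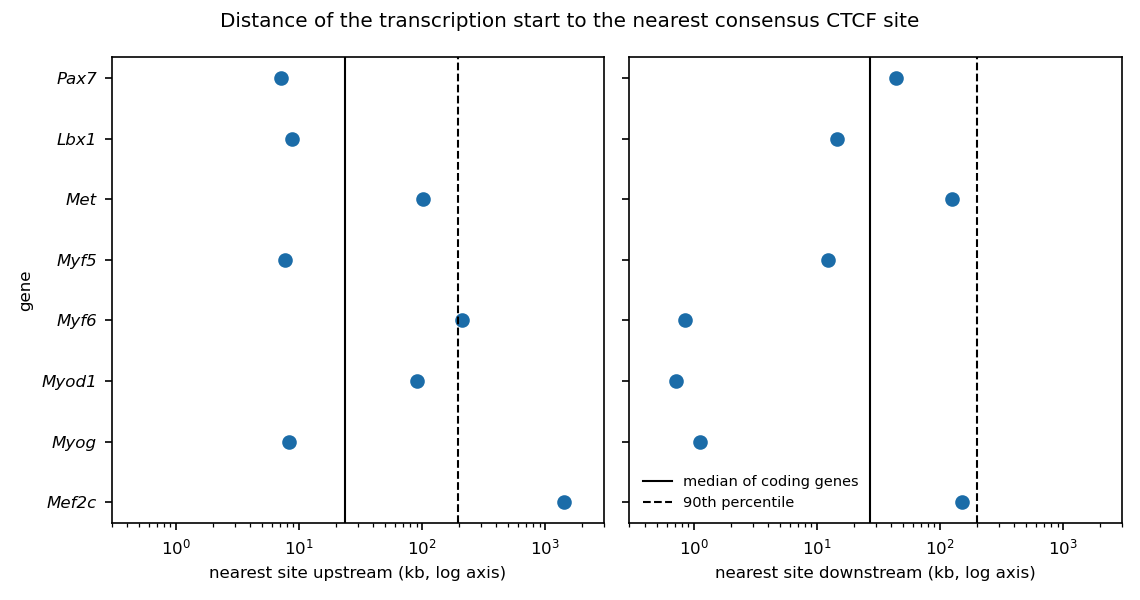
Distance from the start of each gene to the nearest consensus CTCF site upstream (left) and downstream (right), in kb on a log axis. Lines give the median and the 90th percentile of all coding genes; Mef2c, at 1410 kb, and Myf6, at 210 kb, lie past the 90th percentile upstream, while Myod1, Myf6 and Myog have a site within 1.13 kb downstream.

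Downstream, 3 of the 4 myogenic regulatory factors had a consensus site inside their own coding sequence: Myod1 at 0.718 kb, Myf6 at 0.853 kb and Myog at 1.13 kb past the start. At most 7.21% of coding genes had a nearer downstream site than any of these 3. Over all member windows, 3 of 30 consensus sites had their summit in coding sequence (10.0%, 3.46 to 25.6), against 2.81% of all consensus sites. The comparison was chosen after the sites had been seen, and it rests on 3 sites. Their whole-limb −log10 q was 12.4 at Myod1, 3.75 at Myf6 and 7.44 at Myog, against a list median of 17.0. RAD21 was called at none of the 3 in any list. Most whole-limb CTCF peaks within 1.2 times their strength also lacked whole-limb RAD21: 61.4% for Myod1 site 1, 85.4% for Myf5-Myf6 site 4 and 76.2% for Myog site 4.

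Within 1 kb of the start, CTCF was called in distal forelimb at 3 of the 8 members, Met, Myf6 and Myod1, against 23.3% of coding genes. RAD21 was called at none of the 8 in any list, against 5.35% of coding genes in distal forelimb and 14.1% in wild-type limbs. With 8 genes these shares are coarse, and no difference is drawn from them. RefSeq promoter sequences were matched for Mef2c, Met, Myf5, Myog and Pax7, and no peak of any list overlapped them.

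Distal and proximal forelimb were compared next, because muscle cells are more common proximally. Both forelimb lists held 44 of the 58 member CTCF sites. Of the 46 distal CTCF peaks in the member windows, 2 had no proximal peak (4.35%, 95% interval 1.20 to 14.5), against 17.4% of all distal peaks. Of the 51 proximal peaks, 7 had no distal peak (13.7%, 6.81 to 25.7), against 22.2% of all proximal peaks. The interval of the distal-only share did not reach the genome-wide value, and the interval of the proximal-only share held it.

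For the proximal-only share, though not for the distal-only share, the order against the genome depended on peak strength. When both lists were limited to peaks whose −log10 q was 10 or more, 1 of 33 distal member peaks was distal-only (3.03%), against 8.59% of all. In the same selection 5 of 37 proximal member peaks were proximal-only (13.5%), against 8.21% of all. That is the opposite side of the genome-wide share to that found over all peaks. No interval was computed for this selection and the counts are small, so no difference from the genome is read from either share.

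The distal-only peaks lay 3.78 kb past the Myog start, at 5.41, and in the Pax7 window beyond the end of the gene, at 2.84. The one in the Pax7 window, site 3, coincided with a RAD21 peak of 7.25 in wild-type limbs. The strongest proximal-only peaks were both in the Pax7 window: site 17, 45.1 kb upstream of the start, at 12.8, and site 10, in an intron, next to it in strength. Those of Myog were 5.23, in a coding exon of Ppfia4, and 1.94. Those of Mef2c, Met and Lbx1 were 4.56, 3.30 and 3.10. Myf5, Myf6 and Myod1 had none of either kind.

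Over the genome, distal-only peaks had a median of 4.37, a 95th percentile of 11.2 and a highest value of 37.9, and proximal-only peaks a median of 4.01, a 95th percentile of 10.3 and a highest value of 33.6. Pax7 sites 17 and 10 were thus among the strongest 5% of proximal-only peaks. None of the 9 was in the wild-type whole-limb list. Site 10 of Pax7 was also called in del(attP-rel5)d9lac, at 8.25, and site 17 in del(8-13)d11lac, at 10.3, while the other 7 were in no other CTCF list.

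At the 44 member sites with exactly 1 peak in each forelimb list, both strengths could be compared. The distal −log10 q was the higher at 19 of them (43.2%), against 52.9% of the 56978 such pairs in the genome. No interval was computed for this share, so no shift towards either part is read from it. The 2 libraries differ in scale, so each peak was also ranked within the pairs. The distal percentile minus the proximal percentile had a median of −0.91 over the member pairs and −0.04 over all pairs. The middle 90% lay between −16.78 and 6.81 for the member pairs and between −14.02 and 13.84 for all pairs.

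A distal value at least 2 times the proximal one was found at 1 of the 44 pairs (2.27%, 0.402 to 11.8), against 4.90% of all pairs. It was Lbx1 site 7, with 7.26 in distal and 3.60 in proximal forelimb. The reverse, a proximal value at least 2 times the distal one, was found at 2 pairs (4.55%, 1.26 to 15.1), against 4.39% of all pairs. These were Mef2c site 2, with 4.68 in distal and 12.1 in proximal forelimb, and Pax7 site 12, given above. Both genome-wide shares lie within the intervals.

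Just short of the 2-fold line were 3 more pairs, all with the higher value in proximal forelimb. Mef2c site 1 was the nearest to the line, with a proximal value of 24.6. The proximal value was 1.89 times the distal one at Myod1 site 5, in the 5′ UTR of Kcnc1, with 8.46 in distal and 16.0 in proximal forelimb, and 1.87 times at Myod1 site 2, given above. Mef2c site 4 came nearest on the distal side, with a distal value 1.47 times the proximal one. With a fold of 1.5 the count was still 1 pair for distal forelimb (2.27%, 0.402 to 11.8), against 13.2% of all pairs, which lies outside the interval, unlike the share at 2-fold. For proximal forelimb it was 5 of the 44 pairs (11.4%), close to the genome-wide share, 6286 of all 56978 pairs. Both folds were chosen after the values were seen, 1.5 before 2. At the pairs past a fold of 1.5 no value was above 34.8, that of Pax7 site 12 in proximal forelimb. This is close to 35.5, the median proximal value over all pairs.

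**Figure D3:**
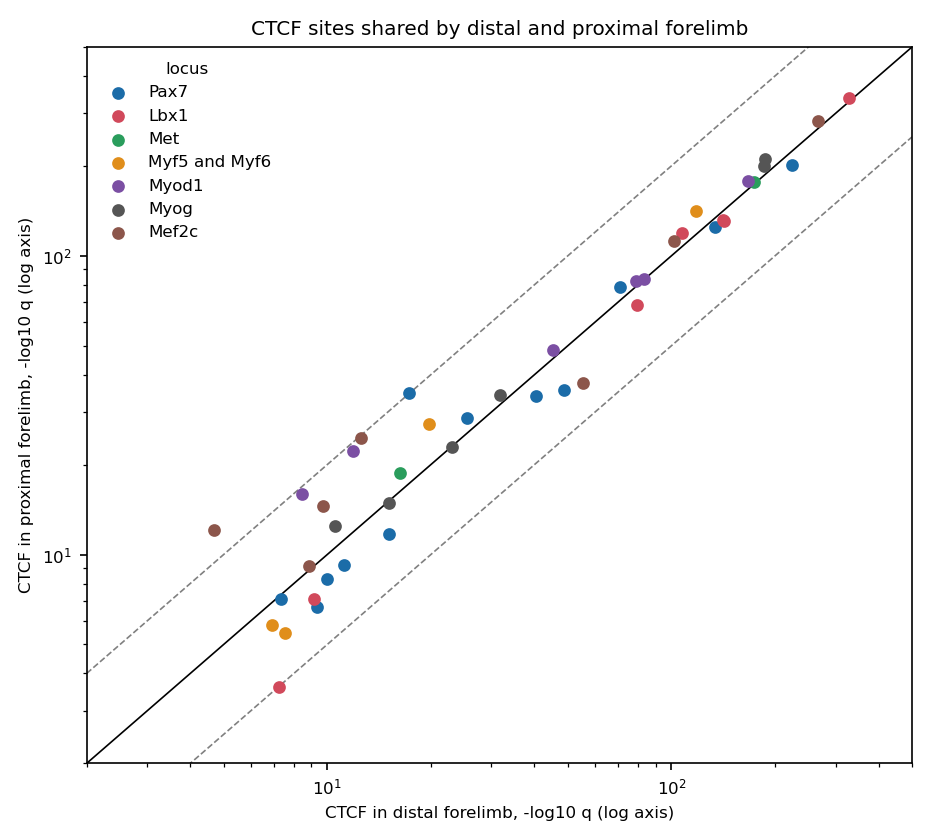
CTCF −log10 q in distal forelimb (x axis) and proximal forelimb (y axis) at the 44 member sites with 1 peak in each list, both on log axes, coloured by locus. The solid line marks equal values and the dashed lines 2-fold differences. Outside the dashed lines lie 3 sites, 1 stronger in distal and 2 stronger in proximal forelimb, with no value above 34.8.

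In distal forelimb, RAD21 was called at 13 of the 46 CTCF peaks of the members (28.3%, 17.3 to 42.5), against 22.8% of all distal CTCF peaks. SMC1 was called at 16 of 46 (34.8%, 22.7 to 49.2), against 31.0%. The genome-wide values lie within both intervals. Of the 17 SMC1 peaks, 4 had no RAD21 peak (23.5%, 9.56 to 47.3), against 37.5% of all SMC1 peaks, and they were at Lbx1 site 6, Myod1 site 1, Mef2c site 4 and the Mef2c intron site without CTCF. RAD21 and SMC1 are subunits of one complex, and the SMC1 list was the longer of the 2, with 23185 peaks against 16498 for RAD21. In wild-type whole limbs, RAD21 was called at 17 of the 30 consensus sites (56.7%, 39.2 to 72.6), against 55.9% of all consensus sites.

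The deletion alleles were then set beside wild-type limbs. All members lie on other chromosomes than HoxD, so these lists show how the sites behaved in further libraries. The 30 consensus sites were all called in del(8-13)d11lac (100%, 88.6 to 100), against 98.7% of all consensus sites. In del(8-13)rXII 23 were called (76.7%, 59.1 to 88.2), against 77.0%, in del(1-13)d9lac 25 (83.3%, 66.4 to 92.7), against 87.2%, and in del(attP-rel5)d9lac 28 (93.3%, 78.7 to 98.2), against 90.4%. In all 4 alleles the genome-wide share lay inside the member interval.

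The consensus sites that an allele lacked were weak ones, with a whole-limb −log10 q of at most 11.4. The del(8-13)rXII list lacked Pax7 sites 2, 5 and 12, Myod1 site 2, Myog site 3 and sites 2 and 4 of Myf5 and Myf6, although at Myf5-Myf6 site 2 a peak of 3.30 lay beside the whole-limb peak. The del(1-13)d9lac list lacked Pax7 site 5, Myod1 site 2 and sites 2, 3 and 4 of Myf5 and Myf6. The del(attP-rel5)d9lac list lacked sites 2 and 3 of Myf5 and Myf6. Among whole-limb peaks within 1.2 times the strength of the strongest missing site, Pax7 site 2, 32.6% were also without a peak in del(8-13)rXII.

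Some CTCF sites of the member windows were called in a deletion allele and in no wild-type list. In del(8-13)d11lac these were 2 of 46 peaks (4.35%), Pax7 site 6 at 5.50 and Myog site 7 at 3.73, against 7.08% of all peaks of that list. In del(8-13)rXII it was 1 of 26 (3.85%), Pax7 site 13 at 2.03, against 4.62%. Pax7 site 13 (chr4:139858394-139858528) lay right beside the peak of the same list at site 14 (chr4:139858598-139859092), which had a peak in all lists. In del(1-13)d9lac these were 2 of 28 (7.14%), Lbx1 site 8 at 2.22 and Myog site 7 at 4.08, against 5.19%, and in del(attP-rel5)d9lac 0 of 33, against 2.94%.

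RAD21 in del(8-13)rXII limbs was called at 12 of the 22 whole-limb RAD21 peaks of the member windows (54.5%, 34.7 to 73.1), against 45.2% of all whole-limb RAD21 peaks. The 12 were the sites with a peak in all lists, and their whole-limb RAD21 values lay between 33.2, at Myf5-Myf6 site 1, and 175, at Met site 4. The 10 not called had whole-limb values of 8.76 or less. The del(8-13)rXII RAD21 list was shorter than the wild-type one, with 15927 peaks against 33707.

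**Figure D4:**
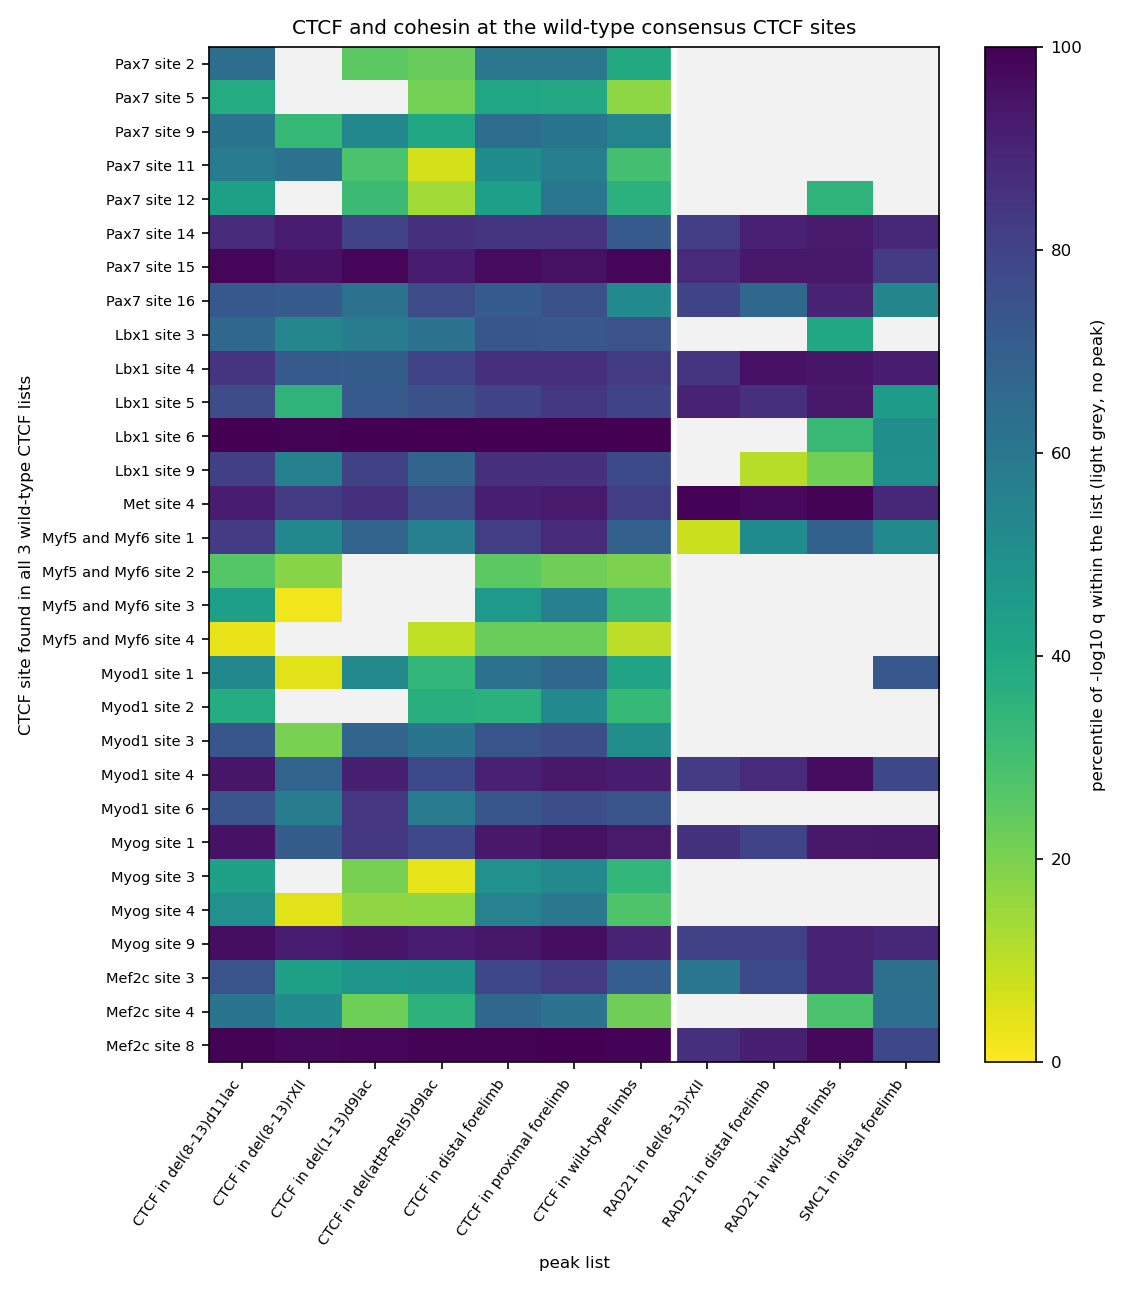
The 30 consensus CTCF sites of the members (rows) in the 11 peak lists (columns, CTCF left of the white line, RAD21 and SMC1 right of it), coloured by the percentile of the peak within its list, light grey where no peak was called. The 12 rows filled across all columns include 1 or more of each locus, and Lbx1 site 6 has the highest member value in every CTCF list but has no RAD21 in distal forelimb or del(8-13)rXII limbs.

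**Figure D5:**
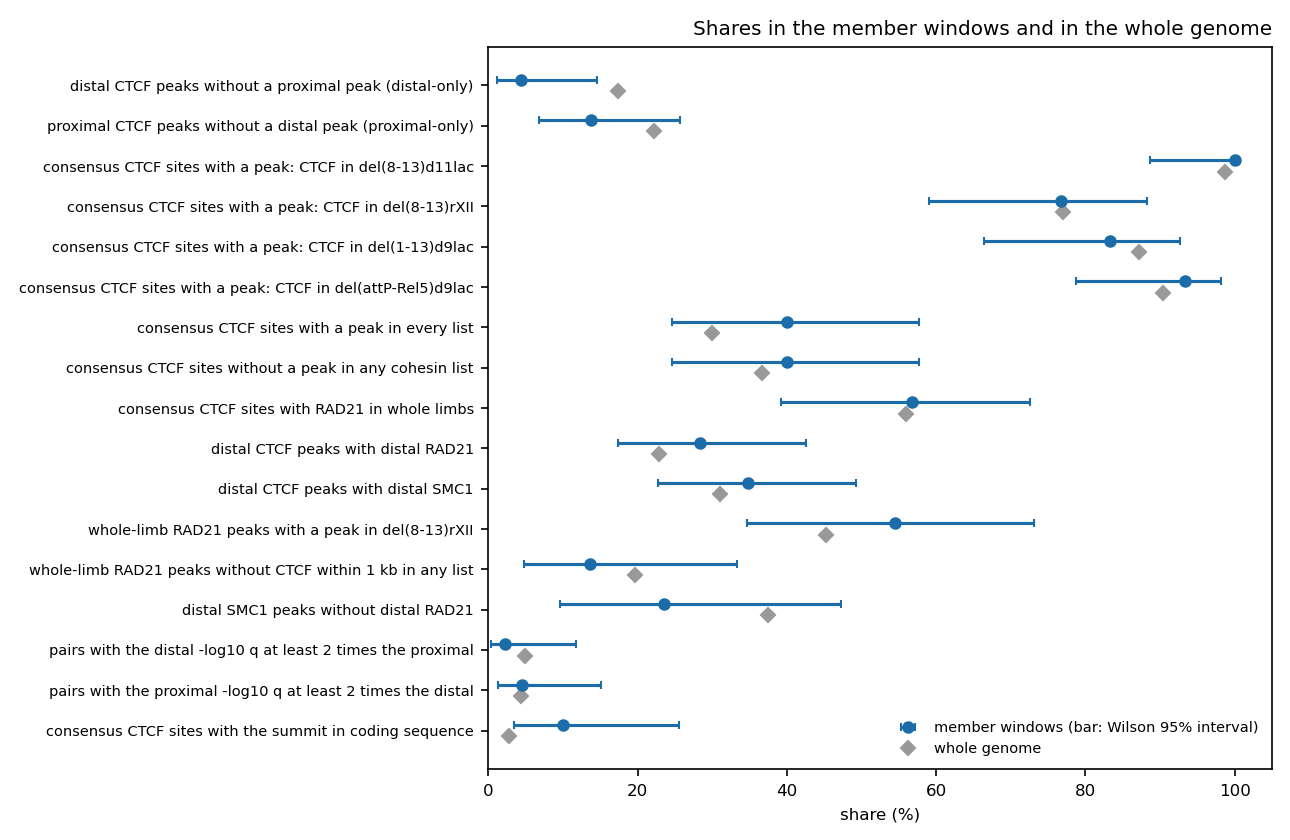
Shares in the member windows (circles, with Wilson 95% intervals) and over the whole genome (diamonds), in percent. The genome-wide value lies outside the interval for distal-only peaks (4.35% against 17.4%) and for summits in coding sequence (10.0% against 2.81%). It lies inside the interval for the rest. The comparison of coding sequence was chosen after the sites had been seen and rests on 3 sites.

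A wider list of 49 myogenic genes was examined in the same way. A distal-only CTCF peak lay in the windows of 2 of the 8 members and 20 of the 49 wider genes (40.8%), against 52.5% of all coding genes. A proximal-only peak lay in the windows of 5 of the 8 members and 28 of the 49 (57.1%), against 60.8% of all coding genes. The strongest pair of proximal-only peaks of the wider list were near Dmrt2, a factor of the dermomyotome, at 21.9, and near Tnni1, the slow skeletal troponin I, at 16.1. Lists named for other cell types were counted too, and whether their genes mark cells of the limb was not checked. Distal-only peaks lay at 7 of 10 cartilage and bone genes, 6 of 10 tendon and connective tissue genes and 5 of 8 endothelial genes. They also lay at 4 of 8 blood genes, 2 of 7 surface ectoderm genes and 3 of 7 nerve and glia genes. The same lists gave a proximal-only peak at 10 of 10 cartilage and bone genes, 7 of 10 tendon and connective tissue genes, 4 of 8 endothelial genes, 6 of 8 blood genes, 6 of 7 surface ectoderm genes and 3 of 7 nerve and glia genes. Long windows hold more peaks of either kind, and window length was not adjusted for.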

How the data were processed

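CTCF, RAD21 and SMC1 were profiled by ChIP-seq, and CTCF in del(8-13)rXII by ChIPmentation. Per the submitters' processing notes, cutadapt, Bowtie2 and MACS2 were used with mm10; versions are not given in the sources used here. Each deposited list holds 1 library's peaks with the fold enrichment as a ratio, the −log10 p, the −log10 q and a score that is 10 times the −log10 q, all by the authors. The lowest −log10 q was 1.30, that of a q of 0.05.

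From these lists, intervals with several summits were joined and chromosomes 1 to 19, X and Y kept. Peaks were assigned by the strongest summit to GENCODE M21 gene bodies plus 50 kb, and overlaps of at least 1 base counted as shared. No replicates exist, so the main shares carry Wilson 95% intervals for counting error only. The CTCF motif matrix was built from whole-limb summits and searched within 50 bp of each summit on both strands. The overlap rules and the motif search were tested on simulated peaks and sequences. Python 3.11.15, numpy 2.4.6, pysam 0.24.0 and samtools 1.23.1 were used. Sites were named by a rule: up to 6 consensus sites per locus, up to 3 distal-only, proximal-only or CTCF-free cohesin sites per locus, the sites flanking each start, and up to 4 genes per wider list, 1 result of which is not reported here. The members, gene lists and rules were chosen with earlier results of these data known. Alternatives varied the peak threshold, window, overlap rule and list length.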

Additional observations from a re-analysis of the deposited data

How the results depend on the processing

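The shares and counts for the member windows were recomputed with a minimum −log10 q of 10 in all lists, with flanks of 20 or 100 kb, with at least 50% of the peak covered, with summits within 200 bp, with lists of equal length and with CTCF from wild-type lists alone. Of the 63 planned values, 54 stayed within the main interval, or within 1.5 times the main count. The distal-only share ranged between 3.03% and 8.11% and the proximal-only share between 9.38% and 16.0%. The CTCF sites numbered 36 with flanks of 20 kb and 94 with flanks of 100 kb. Cohesin sites without CTCF numbered 0 at a −log10 q of at least 10 and 9 with flanks of 100 kb, against 3. At a −log10 q of at least 10, 47.6% of the consensus sites were called in del(8-13)rXII, against 76.7% over all peaks, and 91.7% of the whole-limb RAD21 peaks were called in del(8-13)rXII limbs, against 54.5%. With CTCF lists cut to equal length, 91.7% of the consensus sites were called in del(8-13)rXII and 100% in del(1-13)d9lac, against 76.7% and 83.3% over all peaks. With flanks of 20 kb, distal RAD21 was called at 16.1% of distal CTCF peaks, against 28.3%. For the shares in the alleles and with RAD21, no genome-wide value is given at these settings. The median −log10 q of the del(8-13)rXII CTCF list was 7.07, below the threshold of 10. Nothing particular to the members is therefore read from these changes. A pair of further settings were chosen after seeing the data. A fold of 1.5 took the proximal-stronger pairs to 11.4%, against 4.55%. Genome-wide, such pairs rose alike, from 2500 to 6286 of 56978, so no proximal excess is read from the member share. The same fold left the distal-stronger pairs at 2.27%, while their genome-wide share went up to 13.2%. Sites of the forelimb lists alone brought the nearest site upstream of Met to 0.283 kb. Depth is unknown, and weak sites are the ones that lists differ in. The cause was not tested. No paired analysis was possible because each group has 1 library.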
